A study of Mus musculus with 6 samples.

Results

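A panel of 37 genes that encode parts of the sarcomere and its Z-disc was examined in the hearts of western diet (WD)-fed mice given Tributyrin or vehicle. The genes were chosen by name: each listed mouse symbol was matched to its Ensembl identifier in GENCODE M21, and 37 of 37 were found among the 54232 identifiers in the count files. All 37 had enough counts to be tested, among 14133 genes tested in all. They were placed in 5 groups by role, with 7 genes of the thick filament, titin and the M-band, 9 of the thin filament, 14 of the Z-disc, 3 of folding and assembly, and 4 of desmin and the costamere.

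Heart ventricle RNA came from 6 C57BL/6J mice of WT genotype, all kept on WD. After 15 weeks of diet, 3 mice were needle-fed Tributyrin, a triglyceride of butyrate, at 5 g/kg body weight for 3 weeks with pauses between doses, and 3 mice received vehicle, which the labels call PBS. No mice on normal chow were among these samples, so both groups share the diet. Neither sex nor age is given for single mice in the labels. *Xist*, which is transcribed from the inactive X chromosome, lay between 0 and 6.24 normalized counts in the 6 libraries. The Y-linked genes *Ddx3y* (1802 to 2241), *Eif2s3y* (964 to 1314), *Uty* (464.5 to 579.8) and *Kdm5d* (365.9 to 431.1) had normalized counts in all of them. Replicate numbers name separate samples within a group, and the labels do not say that they link a vehicle mouse to a Tributyrin mouse.

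The sarcomere is the contractile unit of striated muscle. Myosin thick filaments, crosslinked at the M-band, slide past actin thin filaments whose barbed ends are anchored in the Z-disc, and titin spans from the Z-disc to the M-band. At the Z-disc alpha-actinin crosslinks actin, and a large set of PDZ, LIM, immunoglobulin and actin-binding proteins links it to signalling, to desmin filaments and, by way of the costamere, to the cell membrane. Mutations in many of these genes are a known cause of cardiomyopathy.

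The libraries held from 20369746 to 32734485 counts on genes, of which mitochondrial transcripts made up 23.6% to 26.5% with vehicle and 25.9% to 28.8% with Tributyrin. The 37 genes took 4.3% to 4.78% of all counts and 5.95% to 6.34% of counts that were not mitochondrial. Single genes had between 57 and 260664 counts in a library. Normalized counts below are counts divided by the DESeq2 size factor of the library. Genes listed here as ventricular cardiomyocyte markers were high in all 6 mice. Of these *Myh6*, the adult alpha myosin heavy chain, had between 446300 and 568300 normalized counts and *Myl2* between 150800 and 179200. Atrial markers summed to 6166, 5760 and 2341 normalized counts in the vehicle mice and to 1568, 2593 and 2236 in the Tributyrin mice, so that vehicle replicates 1 and 2 stood above the rest. In bulk ventricle, fewer cells of a type and less RNA per cell cannot be told apart.

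To show what lies in front of some of the genes, the 250 bases before the RefSeq start site are printed for 4 of them, on the strand of the gene. *Pdlim1* and *Ldb3* are Z-disc genes whose groups did not overlap, as was so for 8.92% of all genes tested. *Ttn* had the widest swing between mice, and *Tnnc1* was the most abundant thin filament gene per exonic length. In build GRCm38.p6 the windows are chr19:40271617-40271866 (minus strand) for *Pdlim1*, chr14:34588682-34588931 (minus) for *Ldb3*, chr2:76982548-76982797 (minus) for *Ttn* and chr14:31208062-31208311 (plus) for *Tnnc1*. Capitals mark a match to 1 of 5 muscle or core promoter motifs searched on both strands: a CArG box 35 bases before the start of *Ldb3*, a MEF2 site 166 bases before that of *Ttn*, and CATTCC, read here on the other strand, 58 bases before that of *Tnnc1*. The *Pdlim1* window held no match, and its start lies 226 bases from the GENCODE start.
Pdlim1: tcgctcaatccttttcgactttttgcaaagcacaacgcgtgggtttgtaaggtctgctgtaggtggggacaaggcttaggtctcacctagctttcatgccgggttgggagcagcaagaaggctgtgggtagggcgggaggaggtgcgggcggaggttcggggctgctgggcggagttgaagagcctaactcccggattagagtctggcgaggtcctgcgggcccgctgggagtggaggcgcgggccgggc
Ldb3: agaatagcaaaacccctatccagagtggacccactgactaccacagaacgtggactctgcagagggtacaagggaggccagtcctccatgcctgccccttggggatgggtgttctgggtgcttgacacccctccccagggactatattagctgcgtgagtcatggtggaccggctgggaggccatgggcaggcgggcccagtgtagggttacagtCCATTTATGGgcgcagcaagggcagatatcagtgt
Ttn: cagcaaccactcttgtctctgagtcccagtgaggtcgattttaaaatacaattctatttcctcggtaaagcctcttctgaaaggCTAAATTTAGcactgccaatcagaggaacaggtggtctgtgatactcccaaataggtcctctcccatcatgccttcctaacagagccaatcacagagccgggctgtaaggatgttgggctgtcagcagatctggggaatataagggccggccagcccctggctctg
Tnnc1: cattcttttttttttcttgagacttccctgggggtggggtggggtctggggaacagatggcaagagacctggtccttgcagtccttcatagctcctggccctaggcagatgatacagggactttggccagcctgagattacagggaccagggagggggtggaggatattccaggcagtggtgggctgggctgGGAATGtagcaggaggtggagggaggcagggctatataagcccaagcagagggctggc

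RefSeq windows were found for 31 of the 37 genes, with none for *Myot*, and 21 of the 31 held at least 1 motif. The MEF2 motif was in 7 of the 31 windows (*Mybpc3*, *Ttn*, *Myom3*, *Myoz2*, *Synpo2l*, *Synpo2* and *Speg*), against 2.92% of all 32851 windows. A CArG box, the site of serum response factor, was in 3 (*Myl3*, *Myom1* and *Ldb3*), against 1.47%. CATTCC, the core of TEAD sites, was in 7 windows (all windows 12.6%), the E-box CAGCTG in 7 (13.0%) and TATAAA in 4 (12.4%). Of the 31 windows 21 end within 100 bases of the GENCODE start. These include all 7 with a MEF2 motif but only *Ldb3* of the 3 with a CArG box, since the *Myl3* and *Myom1* windows lie 21817 and 16924 bases from it, and 4 of those with the TEAD core, 6 with the E-box and 2 with the TATA sequence. These matches are letters in a window and were not measured as sites.

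Levels between genes were compared as the mean of 6 mice in normalized counts per kb of exonic length. They spanned from 82800 for *Myl2*, the regulatory light chain of ventricular myosin, to 13.9 for *Myom3*, the third myomesin. Among all genes outside the mitochondrial genome *Myl2* was at rank 4, *Myl3*, the essential light chain, at rank 7 and *Tcap*, which encodes the titin cap telethonin, at rank 9, while *Pdlim3* was at rank 6403 and *Myom3* at rank 11728. After *Myl2* the order was *Myl3* (57890 normalized counts per kb), *Tcap* (54610), *Tnnc1* (37060), *Tpm1* (31730), *Mybpc3* (23470), *Cryab* (22420), *Des* (11720), *Actn2* (11480) and *Lmod2* (8794). The neighbours *Myl3* and *Tcap*, *Tcap* and *Tnnc1*, *Tnnc1* and *Tpm1*, *Mybpc3* and *Cryab*, and *Des* and *Actn2* had overlapping ranges over the 6 mice. At the low end were *Synpo2* (339.7), *Pdlim1* (193.2), *Pdlim3* (90.6) and *Myom3*. *Ttn*, by far the longest at 116825 exonic bases, had 78914 to 150733 normalized counts per mouse but only 950.1 per kb. The median of the 37 genes was 2113 normalized counts per kb, and 3047 when the longest coding transcript replaced the union of exons. On that second scale *Tpm1* (71210) stood above *Tnnc1* (53520) and *Tcap* (54610), *Cryab* (29690) above *Mybpc3*, and *Lmod3* (1105) below *Nebl* (1193).

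**Figure D1:**
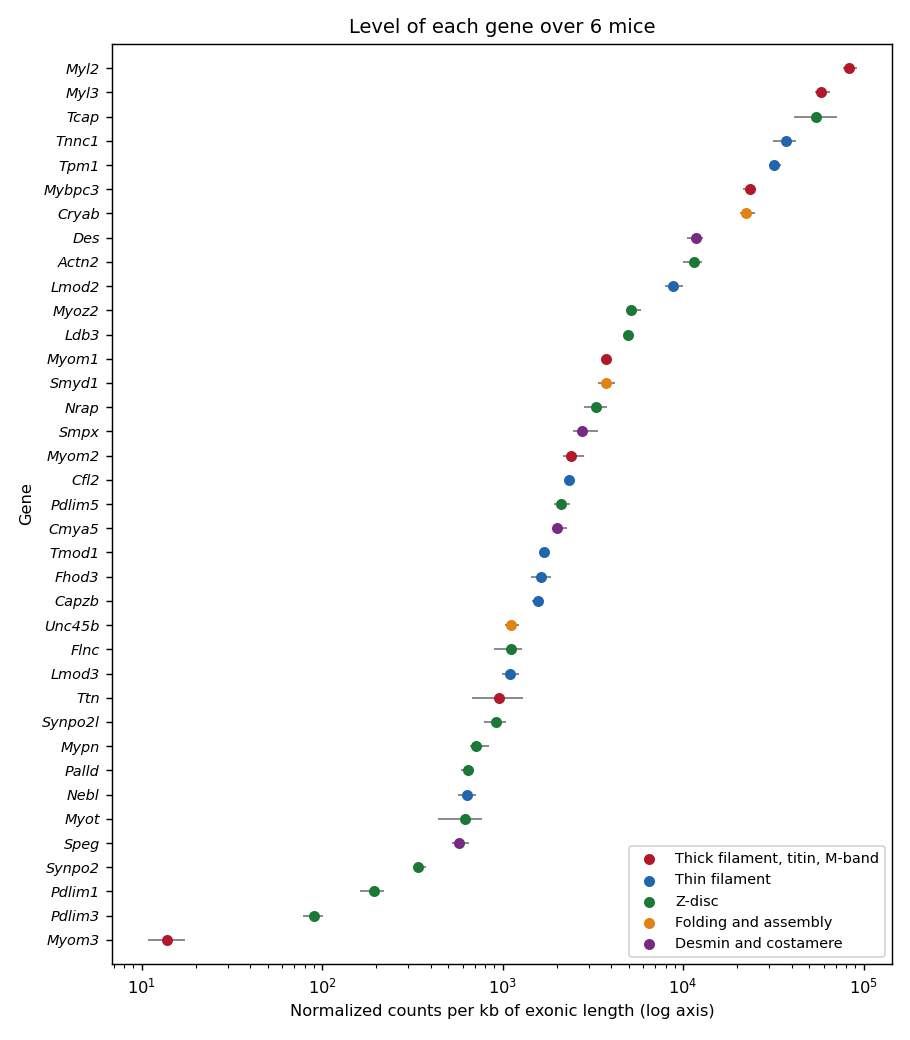
Mean level of each of the 37 genes (points, coloured by role) in normalized counts per kb of exonic length, with the range over the 6 mice as a line, on a log axis. *Myl2*, *Myl3* and *Tcap* stand at the top, *Pdlim1*, *Pdlim3* and *Myom3* at the bottom, and the range over mice is small beside the range over genes.

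The main comparison asked whether these genes differ between WD + Tributyrin and WD + vehicle. By the quasi-likelihood test of edgeR, adjusted over all genes tested by the Benjamini-Hochberg method, 0 of the 37 genes passed an FDR of 10% (0.0% of all genes tested) and the smallest adjusted p among them was 0.999. DESeq2 and limma-voom also gave 0 of the 37 at that level. At an unadjusted p under 0.05 there was 1 gene, *Myot*, lower with Tributyrin, where 4.25% of all genes tested passed that level (2.28% lower and 1.97% higher) and 3.9% of the 10598 genes at or above the level of the lowest of the 37. The log2 fold change, Tributyrin over vehicle, was above 0 for 17 genes and below 0 for 20 (49.6% of all genes, and 50.4% of those at or above that level, were above 0), with a median of -0.005 (all genes -0.001). Scaled by library size alone, 8 genes were above 0 and the median was -0.079. Of all 14133 genes, 3891 were above 0 at that scaling, with a median of -0.074. The single values ran from -0.39 for *Myot* to 0.19 for *Smpx*, and 1 gene was more than 0.2 from 0, against 21.7% of all genes and 10.4% of those at or above that level. For 3 genes the groups stood apart in normalized counts, all lower with Tributyrin and all of the Z-disc, where 8.92% of all genes stood apart (8.5% at or above that level) and 4.65% did so with lower values.

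**Figure D2:**
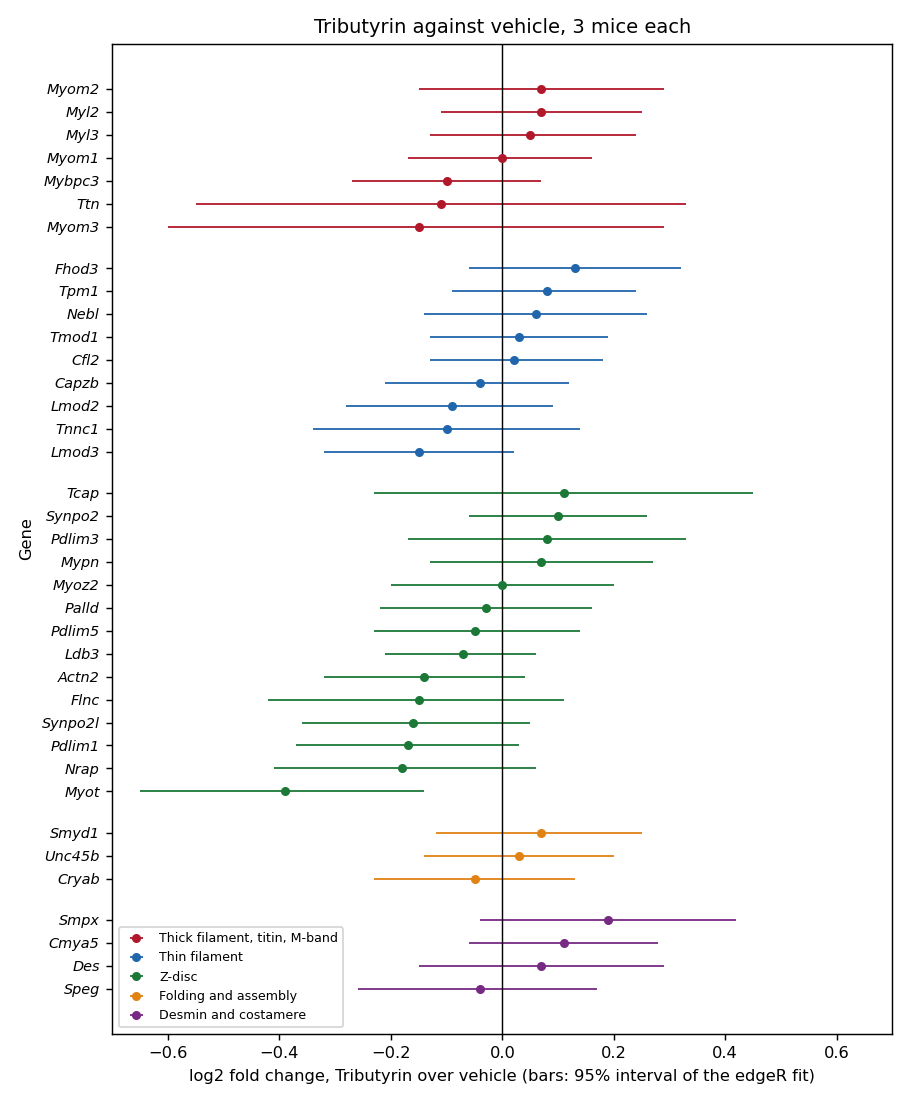
Log2 fold change, Tributyrin over vehicle (3 mice each), for the 37 genes by role, with the 95% interval of the edgeR fit as bars. The interval of *Myot* lies wholly below 0, from -0.65 to -0.14, and the intervals of the other genes reach across 0.

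Of the 14 Z-disc genes, 4 were above 0 and 10 below, with a median log2 fold change of -0.060. With library size alone 3 were above 0 and the median was -0.134 (all genes 3891 of 14133 and -0.074). *Myot* encodes myotilin, which binds alpha-actinin, filamin C and actin, and lies on chromosome 18 from 44334074 to 44355724 on the plus strand (GRCm38). Its normalized counts were 1469, 1705 and 1478 in the vehicle mice and 967, 1321 and 1254 in the Tributyrin mice. Each Tributyrin mouse lay below each vehicle mouse, and Tributyrin replicate 1 was the lowest. Vehicle mice had a mean of 1551 ± 134 and Tributyrin mice of 1181 ± 188 (SD, n = 3 each), for which a two-sided exact permutation test gave p = 0.1, and no smaller p is possible with 3 mice in each group. The log2 fold change was -0.39 (standard error 0.116), with an unadjusted p of 0.00651 in edgeR's model across genes, at rank 84 of all genes tested, and an adjusted p of 0.999. Without Tributyrin replicate 1 it was -0.26 (edgeR unadjusted p 0.0206). With no filter on low counts, edgeR gave *Myot* the same fold change and an adjusted p of 0.00809, where 167 of 25581 genes passed 10%.

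*Pdlim1*, a PDZ and LIM domain protein that binds alpha-actinin, lies on chromosome 19 from 40221173 to 40271842 on the minus strand. It had 1034, 1158 and 1037 normalized counts with vehicle and 858, 1024 and 985 with Tributyrin. The groups were apart, though the highest Tributyrin mouse came close to the lowest vehicle mouse. Its log2 fold change was -0.17 (standard error 0.089), with an unadjusted p of 0.0816 in edgeR's model, and was -0.09 without Tributyrin replicate 1. *Ldb3* encodes ZASP, which joins alpha-actinin to other Z-disc proteins, and lies on chromosome 14 from 34526603 to 34588682 on the minus strand. Its normalized counts were 31393, 31207 and 30657 with vehicle and 29395, 29008 and 30088 with Tributyrin. The groups were apart by a small step, since the means were 31090 ± 383 and 29500 ± 547 (SD, n = 3 each), and the edgeR log2 fold change was -0.07 (standard error 0.063). The spread among the *Ldb3* values, 1.23% of the mean with vehicle and 1.86% with Tributyrin, was below the 7.05% that the edgeR model assigned to it.

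**Figure D3:**
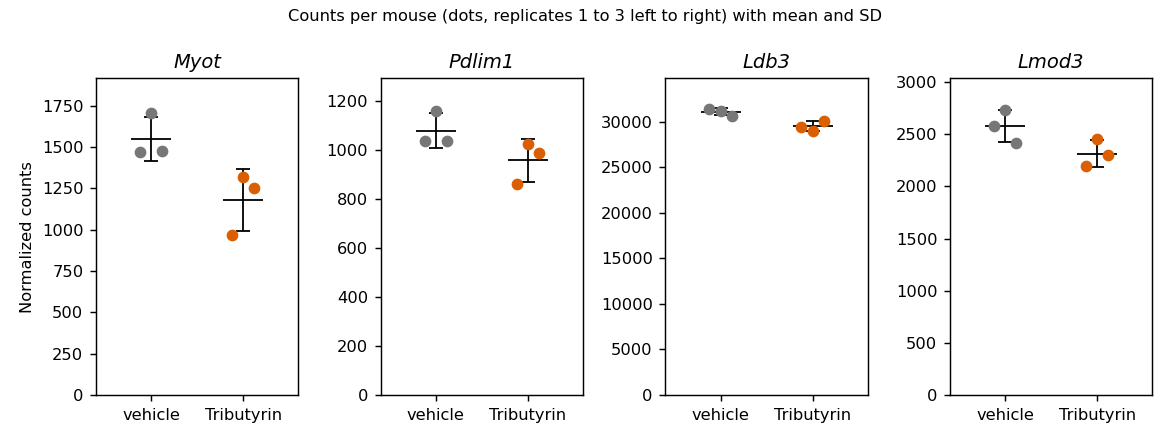
Normalized counts per mouse (dots) with the mean and SD of 3 mice for *Myot*, *Pdlim1*, *Ldb3* and *Lmod3*, with each axis starting at 0. The Tributyrin mice of *Myot*, *Pdlim1* and *Ldb3* lie below all vehicle mice of the same gene, and those of *Lmod3* overlap with them.

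*Nrap*, a nebulin-related anchoring protein of developing myofibrils and intercalated discs, had 17233, 20886 and 19314 normalized counts with vehicle and 15591, 19538 and 15681 with Tributyrin. Tributyrin replicate 2 lay among the vehicle mice while the other two lay below them all, and the log2 fold change was -0.18 (standard error 0.105). *Actn2*, the alpha-actinin of cardiac Z-discs, had 43012, 48185 and 45654 normalized counts with vehicle and 37942, 44478 and 42022 with Tributyrin. Its log2 fold change was -0.14 (standard error 0.081), and again Tributyrin replicate 2 lay inside the vehicle range. *Synpo2l*, a synaptopodin-like protein that binds actin at the Z-disc, had 4170, 4491 and 4853 with vehicle and 3976, 4487 and 3639 with Tributyrin, a log2 fold change of -0.16 (standard error 0.093). Its relative *Synpo2*, also called myopodin, went the other way in the mean, with 4469, 4183 and 4248 against 4426, 4898 and 4457 normalized counts and a log2 fold change of 0.10 (standard error 0.072). Single mice weighed on each of these values. *Nrap* was at -0.11 without vehicle replicate 2 or Tributyrin replicate 1 and at -0.29 without Tributyrin replicate 2, and *Actn2* was at -0.07 without Tributyrin replicate 1. *Synpo2l* was at -0.10 without vehicle replicate 3 and -0.08 without Tributyrin replicate 3, and *Synpo2* at 0.05 without Tributyrin replicate 2. The groups overlap for all 4 genes, and the edgeR unadjusted p with all mice ran from 0.119 for *Synpo2l* to 0.207 for *Synpo2*.

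*Tcap* was the most abundant Z-disc gene per length and lies on chromosome 11 from 98383811 to 98384953 on the plus strand. It had 50808, 47543 and 51043 normalized counts with vehicle and 54425, 39143 and 67654 with Tributyrin. Both the lowest and the highest mouse were thus in the Tributyrin group, with an SD of 14270 there and 1957 with vehicle. The log2 fold change of 0.11 (standard error 0.155) was -0.08 without Tributyrin replicate 3 and 0.29 without Tributyrin replicate 2 (edgeR unadjusted p 0.00957, adjusted p 0.39). *Pdlim3*, which encodes the actinin-associated LIM protein, was the least abundant Z-disc gene per length, with 470, 433 and 457 normalized counts with vehicle and 406, 521 and 512 with Tributyrin. Its groups overlapped. The other Z-disc genes (*Myoz2*, *Flnc*, *Pdlim5*, *Mypn* and *Palld*, which encode calsarcin-1, filamin C, a further PDZ and LIM protein, myopalladin and palladin) overlapped too, with log2 fold changes from -0.15 for *Flnc* to 0.07 for *Mypn*.

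In the thick filament, titin and M-band group 3 of 7 genes were above 0 and the median log2 fold change was -0.005. Library size alone left 1 above 0, with a median of -0.077 (all genes 3891 of 14133 and -0.074). *Myl2* had 162702, 155335 and 154851 normalized counts with vehicle and 165971, 150757 and 179164 with Tributyrin, so that the vehicle range lay inside the Tributyrin range. *Myl3* and *Mybpc3*, which encodes cardiac myosin binding protein C, also overlapped, as did *Myom1* and *Myom2*, the genes of myomesin and M-protein at the M-band. The log2 fold changes of these 5 genes lay between -0.10 and 0.07. *Myom1* shares 207 exonic bases with *Myl12a* on the opposite strand, which had 11472 to 22376 counts, and the strand setting of the counting is not given in the sources used here, so its value is uncertain by that overlap. *Myom3* had 105, 73.7 and 87.0 normalized counts with vehicle and 92.6, 78.6 and 65.4 with Tributyrin, and its wide interval on the log2 scale, from -0.60 to 0.29, goes with those few counts.

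*Ttn* lies on chromosome 2 from 76703980 to 76982547 on the minus strand. Its normalized counts were 113911, 105395 and 126757 with vehicle and 78914, 150733 and 90251 with Tributyrin. The highest mouse and the lowest 2 mice were all in the Tributyrin group, with a mean of 106600 ± 38610 (SD, n = 3) there and 115400 ± 10750 (SD, n = 3) with vehicle. The log2 fold change was -0.11 (standard error 0.199). It was -0.45 without Tributyrin replicate 2 (edgeR unadjusted p 0.00082, adjusted p 0.324), 0.07 without Tributyrin replicate 1 and -0.00 without Tributyrin replicate 3, so the direction rested on single mice. *Ttn* was singled out after its values had been seen.

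Among the 9 thin filament genes 5 were above 0, with a median log2 fold change of 0.023. Library size alone left 2 above 0, with a median of -0.051 (all genes 3891 of 14133 and -0.074). *Lmod3* encodes leiomodin 3, which nucleates actin filaments, and lies on chromosome 6 from 97238534 to 97252759 on the minus strand. Its normalized counts were 2584, 2730 and 2420 with vehicle and 2192, 2457 and 2300 with Tributyrin. Only the highest Tributyrin mouse reached past the lowest vehicle mouse, with means of 2578 ± 155 and 2316 ± 133 (SD, n = 3 each) and a log2 fold change of -0.15 (standard error 0.076, edgeR unadjusted p 0.0712). *Fhod3*, a formin that assembles actin in cardiac sarcomeres, had 11974, 10431 and 11297 with vehicle and 13519, 11605 and 11719 with Tributyrin. Its groups overlapped through vehicle replicate 1, and the log2 fold change was 0.13 (standard error 0.084), which was 0.06 without Tributyrin replicate 1 and 0.08 without vehicle replicate 2. *Tnnc1*, the calcium-binding troponin C of cardiac and slow muscle, had 36684, 43250 and 39690 normalized counts with vehicle and 35606, 32585 and 43691 with Tributyrin. *Nebl*, which encodes the cardiac nebulin relative nebulette and was the lowest of the group per exonic length, had 9853, 8928 and 9564 with vehicle and 10887, 9988 and 8631 with Tributyrin. Both overlapped between the groups. So did *Tpm1* (alpha-tropomyosin), *Lmod2* (leiomodin 2), *Tmod1* (the pointed-end cap tropomodulin), *Capzb* (a subunit of the barbed-end cap CapZ) and *Cfl2* (muscle cofilin), with log2 fold changes from -0.09 for *Lmod2* to 0.08 for *Tpm1*. *Tmod1* shares 1287 exonic bases with *Tstd2* on the opposite strand, which had at most 310 counts, and the other opposite-strand overlaps of *Fhod3*, *Nrap*, *Cryab* and *Myl3* were with genes of at most 34, 82, 1069 and 392 counts.

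The folding and assembly genes had log2 fold changes from -0.05 to 0.07, with 2 of 3 above 0. Library size alone left 0 above 0 (all genes 3891 of 14133). *Cryab*, the small heat shock protein alpha-B crystallin that protects desmin and titin, had 31605, 36999 and 32640 normalized counts with vehicle and 30740, 32575 and 34404 with Tributyrin. *Unc45b*, a chaperone of myosin folding, had 5060, 4930 and 4909 with vehicle and 5043, 5520 and 4656 with Tributyrin. In both genes the groups overlapped, as they did for *Smyd1*, a muscle methyltransferase that acts with myosin chaperones. The vehicle values of *Unc45b* and *Smyd1* were close together, with SDs of 1.65% and 1.95% of the mean, while those with Tributyrin were 8.53% and 10.3%.

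Of the 4 desmin and costamere genes 3 were above 0, with a median log2 fold change of 0.089. Library size alone left 2 above 0, with a median of 0.016 (all genes 3891 of 14133 and -0.074). *Smpx* encodes a small muscle protein of the costamere and lies on chromosome X from 157698910 to 157752591 on the plus strand. It had 6045, 5739 and 5669 normalized counts with vehicle and 6693, 5581 and 7681 with Tributyrin. Replicates 1 and 3 of the Tributyrin group lay above all vehicle mice and replicate 2 below them all. The log2 fold change was 0.19 (standard error 0.104, edgeR unadjusted p 0.0905). It was 0.08 without Tributyrin replicate 3 and 0.30 without Tributyrin replicate 2 (edgeR unadjusted p 0.00268, adjusted p 0.381). *Cmya5*, which encodes the desmin-binding protein myospryn, had 23347, 22663 and 22773 with vehicle and 24397, 26796 and 22963 with Tributyrin. Only Tributyrin replicate 3 lay within the vehicle range, and the log2 fold change was 0.11 (standard error 0.075), which was 0.05 without Tributyrin replicate 2. *Des*, the intermediate filament of muscle, had 39402, 47350 and 42213 with vehicle and 39326, 47476 and 48325 with Tributyrin. *Speg*, a kinase of striated muscle, had 7657, 6983 and 7755 with vehicle and 6671, 8320 and 6696 with Tributyrin. Neither separated the groups.

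**Figure D4:**
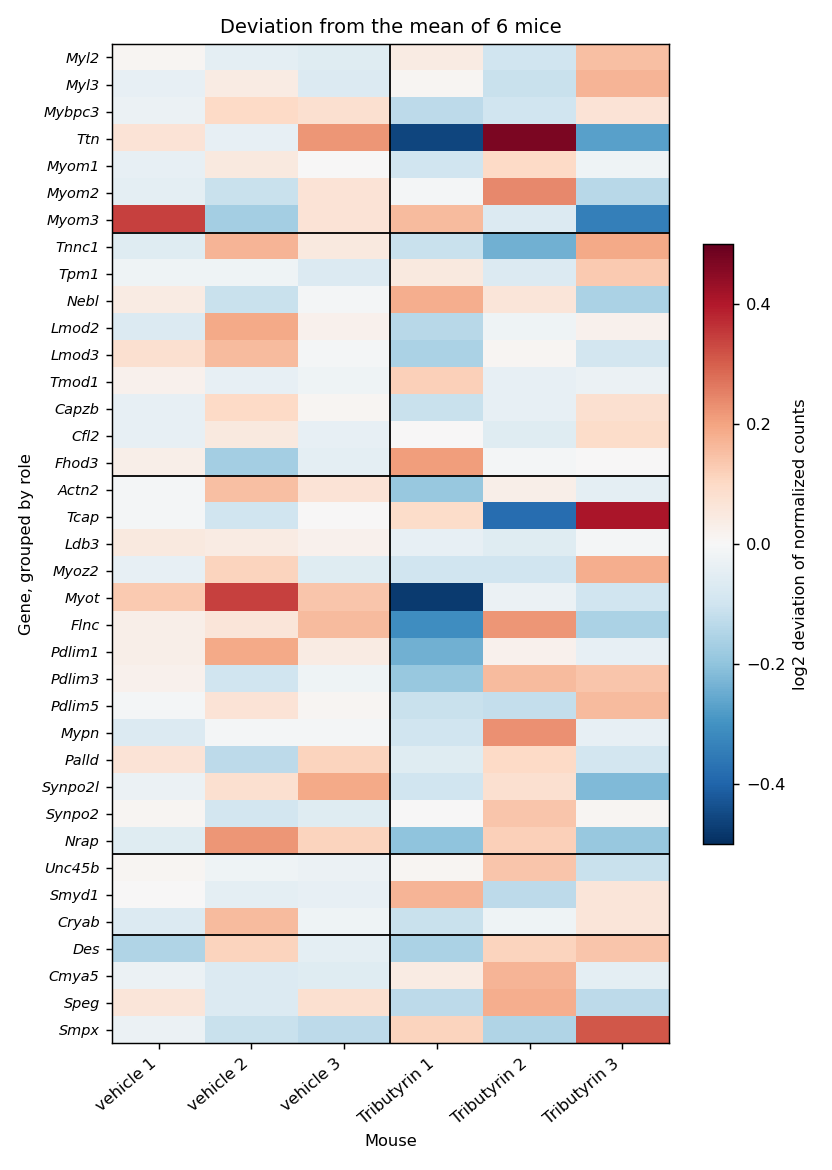
Log2 deviation of normalized counts from the mean of the 6 mice, for the 37 genes (rows, by role) and 6 mice (columns). The 5 values farthest from 0 are in the Tributyrin columns, at *Ttn* (-0.46 in replicate 1 and 0.47 in replicate 2), *Tcap* (-0.38 in replicate 2 and 0.41 in replicate 3) and *Myot* (-0.48 in replicate 1), and the largest in the vehicle columns are 0.34 for *Myom3* and for *Myot*.

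Proportions between related genes were compared as ratios of levels per length within a mouse. Regulatory to essential light chain (*Myl2* over *Myl3*) was 1.42 ± 0.075 with vehicle and 1.44 ± 0.026 with Tributyrin (SD, n = 3 each), and lay between 1.34 and 1.49 in all mice. *Mypn* over *Myot*, both immunoglobulin-domain proteins that bind alpha-actinin, was 1.02, 0.917 and 1.05 with vehicle and 1.52, 1.40 and 1.22 with Tributyrin. *Synpo2l* over *Synpo2* was 2.64, 3.04 and 3.23 with vehicle and 2.54, 2.59 and 2.31 with Tributyrin. For the pairs *Mypn* over *Myot* and *Synpo2l* over *Synpo2* the groups did not overlap (p = 0.1 for each by exact two-sided permutation, the lowest possible value), and 16 ratios were formed, so that the exact p-values adjusted over them by the Benjamini-Hochberg method were 0.727. Among the other ratios, *Myom1* over *Myom2*, *Lmod2* over *Lmod3*, *Tnnc1* over *Tpm1* and *Unc45b* over *Smyd1* had overlapping groups.

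The spread between mice was larger in the Tributyrin group. The SD as a share of the mean was larger with Tributyrin for 32 of the 37 genes (86.5%), against 61.6% of all genes tested, and its median was 5.01% with vehicle and 9.86% with Tributyrin (8.29% and 10.8% over all genes). The lowest of the 6 mice was a Tributyrin mouse for 32 of the 37 genes (58.8% of all genes) and the highest was one for 24 (55.3%). Tributyrin replicate 1 was the lowest for 17, where it was the lowest for 18.3% of all genes. In the Z-disc group Tributyrin replicate 1 was the lowest for 8 of 14. The 37 genes share the same 6 libraries and are not independent replicates, so these counts are given without a test. With Tributyrin replicate 2 left out, 12 of the 37 genes had an edgeR unadjusted p under 0.05 (*Ttn*, *Lmod3*, *Actn2*, *Tcap*, *Myot*, *Flnc*, *Pdlim1*, *Synpo2l*, *Nrap*, *Smyd1*, *Speg* and *Smpx*), where 1360 of 14225 genes, or 9.56%, had one, and 0 of the 12 passed an FDR of 10%.

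Tributyrin replicates 2 and 3 deviated in opposite directions, and the direction went with the length of the transcript. For the 12 genes with the shortest coding transcript, from 721 to 2215 bases, the median log2 deviation from the mean of the 6 mice was -0.07 in Tributyrin replicate 2 and 0.15 in Tributyrin replicate 3. For the 12 with the longest, from 5246 to 106824 bases, it was 0.13 and -0.11. Tributyrin replicate 2 was above the mean for 2 of the 12 short and 10 of the 12 long genes, and replicate 3 for 10 of the short and 1 of the long. Pearson's r of the deviation with log2 length over the 37 genes was 0.76 in Tributyrin replicate 2 (0.67 without *Ttn*) and -0.70 in replicate 3 (-0.69 without *Ttn*), and from -0.29 to 0.50 in the other 4 mice. Over 9662 other genes with a mean CPM of at least 5 it was 0.34, -0.47 and from -0.08 to 0.26, so the slope with length was also present outside the sarcomere genes. These points share a library, and genes are not independent replicates, so r is given without a test.

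**Figure D5:**
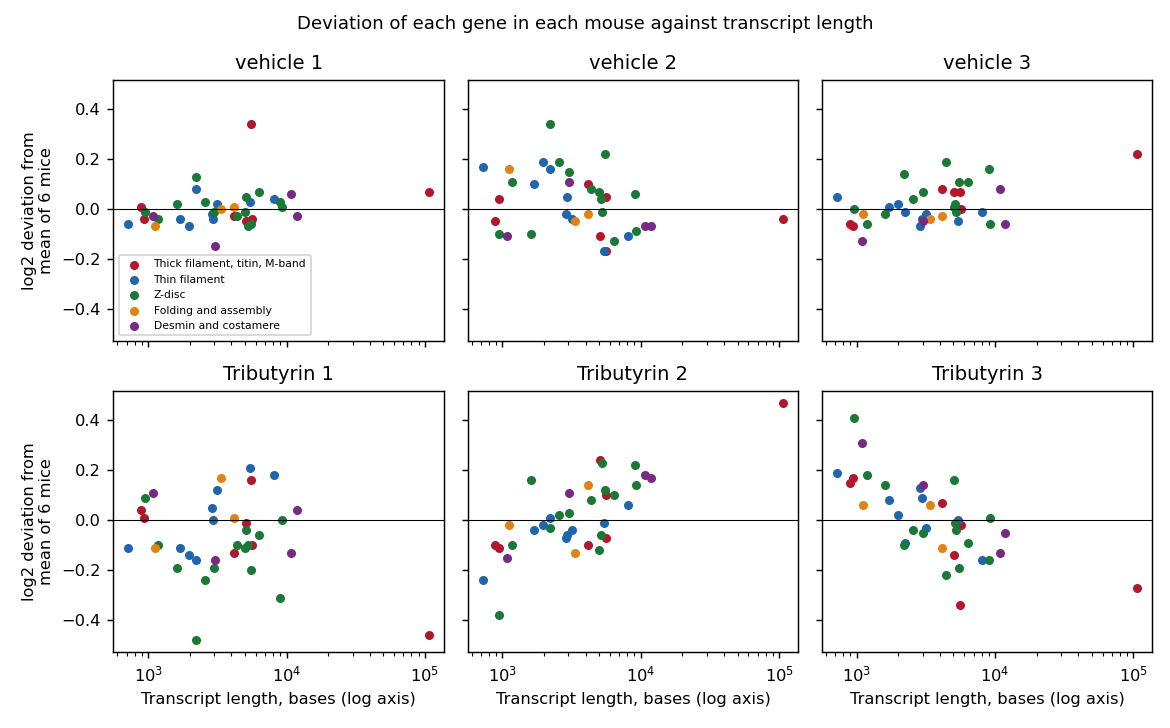
Log2 deviation of each of the 37 genes from its mean over 6 mice (y axis, coloured by role) against transcript length in bases (x axis, log scale), with 1 panel per mouse. Points climb with length in Tributyrin replicate 2 (r = 0.76) and descend in Tributyrin replicate 3 (r = -0.70).

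When the trend in length was taken out of each library, an alternative added after the data had been seen, the median coefficient of variation between mice that edgeR gave the 37 genes went from 8.61% to 7.63%, and that of *Ttn* from 17.5% to 9.01%. *Ttn* then had a log2 fold change of 0.02. The spread within each group over the 37 genes was not recomputed after this step. *Myot* was at -0.41 (edgeR unadjusted p 0.00462, adjusted p 0.908) and *Cmya5* at 0.18 (unadjusted p 0.00581, adjusted p 0.908). In all, 4 of the 37 genes had an unadjusted p under 0.05 (*Lmod3*, *Myot*, *Synpo2* and *Cmya5*), against 4.9% of all genes, and 0 passed an FDR of 10%. Groups did not overlap for *Synpo2* and *Cmya5*, higher with Tributyrin, and for *Myot* and *Pdlim1*, lower, where 9.81% of all genes did not overlap. *Ldb3* no longer stood apart, since Tributyrin replicate 3 (31710 counts after the trend was taken out) was then above all vehicle mice (30045 to 31113).

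Other genes of the same structures were taken from lists made by role. Of 22 further sarcomere genes, all tested, 0 passed an FDR of 10%, 5 had an edgeR unadjusted p under 0.05 with higher values and 4 with lower, against 1.97% and 2.28% of all genes. *Tnnt1*, the slow skeletal troponin T, had 198, 207 and 249 normalized counts with vehicle and 278, 254 and 332 with Tributyrin (log2 fold change 0.40, standard error 0.136). *Tnni3*, cardiac troponin I, had a log2 fold change of 0.21 (standard error 0.081), with 93900 to 98700 normalized counts with vehicle and 99460 to 119400 with Tributyrin. The other higher ones were *Tpm2* (0.34), *Tnnt2* (0.23) and *Lmod1* (0.63). The lower ones were *Actc1* (-0.21), which is also on the list of ventricular markers, and the atrial genes *Myl4* (-1.86), *Myl7* (-1.94) and *Mybphl* (-2.17). For *Myl4* the counts were 1975, 2247 and 246 with vehicle and 267, 709 and 251 with Tributyrin. Vehicle replicates 1 and 2 carried that difference, as they did the summed atrial markers. Of 38 further Z-disc and costamere genes 34 were tested. Of these 7 were above 0 (49.6% of all genes), and the median log2 fold change was -0.059 (all genes -0.001). An edgeR unadjusted p under 0.05 was found for 1 higher and 1 lower gene, against 1.97% and 2.28% of all genes. The groups did not overlap for 2 of the 34, against 8.92% of all genes. *Ankrd1*, the stretch-responsive ankyrin repeat protein that binds titin and myopalladin, had 18950, 28440 and 24160 normalized counts with vehicle and 11570, 16540 and 17460 with Tributyrin, with the groups apart and a log2 fold change of -0.65 (standard error 0.167, edgeR unadjusted p 0.00281, adjusted p 0.999). *Klhl41*, a kelch protein of muscle, had 1916, 2049 and 2051 with vehicle and 2267, 2328 and 2201 with Tributyrin (0.18, standard error 0.069).

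Markers of cell types were counted in the same fit, and 0 of them passed an FDR of 10%. Of 12 ventricular cardiomyocyte markers, *Myl2*, *Myl3* and *Tnnc1* among them, 9 were above 0 (median log2 fold change 0.06). An edgeR unadjusted p under 0.05 was found for 4 of the 12 (4.25% of all genes). *Pln* (0.24), *Tnnt2* (0.23) and *Tnni3* (0.21) were higher with Tributyrin and *Actc1* (-0.21) was lower. The 8 smooth muscle markers, *Des* among them, were all above 0 (median log2 fold change 0.189), 3 of them with an edgeR unadjusted p under 0.05 (1.97% of all genes were higher at that level), and *Myh11*, smooth muscle myosin, had 1025, 979 and 934 normalized counts with vehicle and 1071, 1915 and 1436 with Tributyrin. *Des* made up most of their sum, which was 46132 to 58212 normalized counts per mouse. Of 6 fibroblast markers 5 were below 0, 2 of them with an edgeR unadjusted p under 0.05 (2.28% of all genes were lower at that level). *Lum*, the proteoglycan lumican, had 1565, 1833 and 1657 normalized counts with vehicle and 1310, 1377 and 1391 with Tributyrin, with the groups apart (log2 fold change -0.31, standard error 0.078), and *Col1a1*, a chain of type I collagen, had a log2 fold change of -0.46 (standard error 0.173) with overlapping groups. The sums of the list, to which *Dcn* gave 11720 to 13350 normalized counts per mouse, were 22642 to 25599 with vehicle and 20245 to 25024 with Tributyrin. None of the 5 endothelial, 5 macrophage and 5 erythroid markers had an unadjusted p under 0.05 in edgeR, and the erythroid sum was highest in Tributyrin replicate 1 (24731) and lowest in Tributyrin replicate 2 (10039). The 7 atrial markers tested of 8 were all below 0 (median log2 fold change -1.862), and *Bmp10* reached at most 1.04 normalized counts. An edgeR unadjusted p under 0.05 was found for 5 of the 7, all lower (2.28% of all genes). The groups stood apart for 1 of them, *Dkk3* (4.65% of all genes were apart with lower values). It had 488.5, 493.2 and 320.5 normalized counts with vehicle and 68.3, 117.9 and 294.8 with Tributyrin, so all 3 vehicle mice were higher. Fast skeletal muscle markers summed to at most 111.2 normalized counts per mouse, with *Tnnc2* at 0 in all of them. The part of smooth muscle, atrial or fibroblast RNA in the values of the 37 genes was not tested.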

How the data were processed

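Heart ventricle mRNA libraries (stranded, single-end reads) of 3 Tributyrin and 3 vehicle mice were analysed from raw counts per Ensembl gene, as deposited by the authors. They had cut adapters, dropped low-quality and rRNA reads, aligned with STAR and counted with HTSeq, and the submitters' processing notes give cutadapt 1.13, HTSeq 0.6.1p1, DESeq2 1.14.1 and mm10. How strand was set in the counting, and which annotation was used, is not given in the sources used here, so reads of genes that overlap on opposite strands may not be told apart. Of 54232 identifiers, 54165 matched GENCODE M21, and 0 lines named no gene.

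Groups were compared with edgeR 4.0.16 (quasi-likelihood test, TMM, filterByExpr with min.count 10 and min.total.count 15, Benjamini-Hochberg adjustment, FDR thresholds of 10% and 5%) in R 4.3.3, and single values with two-sided exact permutation tests. Normalized counts used DESeq2 1.42.0 size factors. The steps were tested on simulated data. Replicates are mice named only by a number. The edgeR p-values set the difference between groups against the spread between these samples as modelled across genes. Depth of 20369746 to 32734485 counts makes counting error small for all but the lowest genes, and no pair of libraries agreed within sampling noise.

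The members, the other lists, the ratios and the alternatives were chosen with earlier results of these data known. Values per mouse were given for the 10 members with the smallest unadjusted p and for the most and least abundant member per length in each role group, and other members were given by range; *Ldb3* and *Ttn* were added after their values were seen. From each other list, genes with an unadjusted p under 0.05 were eligible, at most 5 by smallest p. The list of further sarcomere genes departed from this, and all 9 of its eligible genes were named. Alternatives were other scalings, other filters, DESeq2, limma-voom 3.58.1, a block for the replicate number, and omission of single mice. Removal of a length trend per library (natural spline with 3 degrees of freedom) was added after the data were seen.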

Additional observations from a re-analysis of the deposited data

How the results depend on the processing

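Under the 15 alternatives, 176 of the 180 single-gene values given for 12 of the genes kept their direction and side of the 10% threshold. The 12 were the 10 genes with the smallest unadjusted p in the main fit, with *Ttn* and *Tcap* added. They were thus picked by these same data, and the count is not a test of stability. Of all 37 genes, 18 kept their direction in every alternative that tested them. *Myot* stayed lower in 15 of 15, from -0.49 to -0.26 on the log2 scale, with an unadjusted edgeR, DESeq2 or limma p between 3.07e-05 and 0.0341. It passed 10% with no filter on low counts (-0.39, adjusted p 0.00809), which gave 167 genes past 10% (64 higher) and 1 of the 37 past it. In that fit 3 of the 37 had an unadjusted p under 0.05 (*Myot*, *Nrap* and *Smpx*), against 4.6% of all 25581 genes. DESeq2 gave 11 genes past 10% (6 higher) and 0 of the 37. Library size alone moved the median of the 37 to -0.079 and that of all genes to -0.074. It left 8 of the 37 above 0, against 3891 of all 14133 genes. An unadjusted p under 0.05 was then found for 6 of the 37 (*Mybpc3*, *Lmod3*, *Actn2*, *Ldb3*, *Myot* and *Pdlim1*), against 5.65% of all genes. Leaving out each mouse in turn gave 0 to 3 genes past 10% over all genes and 1 to 12 of the 37 with an unadjusted p under 0.05. The highest count was without Tributyrin replicate 2 (9.56% of all genes), and 3 had one without Tributyrin replicate 3 (*Tnnc1*, *Myot* and *Cmya5*, with 4.57% of all genes). With each mouse left out *Ttn* ran from -0.45 (without Tributyrin replicate 2) to 0.07 (without replicate 1) and *Tcap* from -0.08 (without Tributyrin replicate 3) to 0.29 (without replicate 2). With the length trend removed, chosen after seeing the data, *Ttn* turned to 0.02 and 4 of the 37 had an unadjusted p under 0.05 (4.9% of all genes). The cause of these moves was not tested. The longest coding transcript in place of the exonic union moved the median level from 2113 to 3047 normalized counts per kb. *Myom3* was not tested under the filter of a mean CPM of at least 5, and at 57 or more counts per library its depth limits what can be seen.

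With the replicate number as a block, 2 genes passed 10% over all genes. An unadjusted p under 0.05 was found for 2 of the 37 (*Myot* and *Nrap*), against 5.17% of all genes, with *Myot* at -0.40. Deviations of vehicle and Tributyrin mice of the same number correlated at 0.2, 0.03 and 0.02, and those of different numbers from -0.18 to 0.15. With 3 mice in each group these values cannot decide whether the numbers pair the mice.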
